A study of Mus musculus with 6 samples.

Results

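Oxidative phosphorylation (OXPHOS) genes were described in subcutaneous Hepa1-6 tumors from mice with or without sorafenib (Sora) treatment. Members were chosen by symbol. They were all rows that begin with Nduf, Uqcr, Cox4 to Cox8, or Atp5, the rows Sdha to Sdhd, and the 13 protein-coding genes of mitochondrial DNA. This gave 109 of the 26167 genes in the tables, 96 encoded in the nucleus and 13 in the mitochondrial genome. The control group held tumors 1, 3, and 4, and the Sora group held tumors 2, 3, and 4, so that n was 3 per group with 1 library per tumor. Hepa1-6 is a mouse hepatoma cell line, written Hep1-6 in the sample labels. The host mice were female C57BL/6J animals of 6 to 8 weeks, which keep their immune system. Tumor cells were injected on day 0. Treated mice received 10 mg/kg Sora, a multikinase inhibitor, by intraperitoneal injection, given on days 9, 11, 13, and then 15. What the control mice received, and the day on which these tumors were taken, is not given in the sources used here. The labels do not state that each library came from a different mouse, so p-values measure the spread between these tumors only.

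OXPHOS takes place in the inner mitochondrial membrane. Complex I (NADH dehydrogenase) and complex II (succinate dehydrogenase) pass electrons to ubiquinone, complex III (the cytochrome bc1 complex) passes them to cytochrome c, and complex IV (cytochrome c oxidase) passes them to oxygen. Complex V (ATP synthase) uses the proton gradient to make ATP. Complex II is built from nuclear-encoded proteins alone, whereas the other complexes combine nuclear-encoded subunits with a small core that is encoded and translated inside the mitochondrion. The mitochondrial genes are transcribed as long multi-gene RNAs that are then cut into separate transcripts, and all of them except ND6 are read from the same strand. Liver cells are rich in mitochondria, and tumors differ widely in how far they use OXPHOS or glycolysis.

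Each tumor had 31073830 to 36205814 counted reads. The counts of Sora tumor 4 are computed from its FPKM (reads scaled to gene length and to the total of counted reads), and the other 5 tumors have deposited counts. Of the 7 hepatoma markers listed, all were above the limit on low counts. Among them, 4 passed the edgeR test between the groups, where 3.29% of all genes did. Alb (log2 fold change -0.55) and Ttr (-2.15) were lower and Apoa1 (1.03) and Hnf4a (0.80) higher in the Sora group. Apob was called higher by DESeq2 alone (log2 fold change 0.59, adjusted p = 0.0014, edgeR 0.070). Apoa1 was not called by DESeq2 (adjusted p = 0.063). When each tumor was left out in turn, edgeR's adjusted p reached 0.18 for Alb, 0.15 for Apoa1, and 0.082 for Hnf4a, and stayed at or below 0.046 for Ttr. Counts of whole tumors cannot tell fewer cells of a type from less RNA per cell. Over all genes, edgeR called 321 higher and 222 lower, and without Sora tumor 4 it called 4 higher and 1 lower, whereas without Sora tumor 3 it called 574 higher and 571 lower.

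The mitochondrially encoded genes spanned the widest range of levels. In FPKM, which compares genes per length, COX1 had a mean of 7378 over the 6 tumors and ranked 1 of all genes in the tables. ND1 followed at 2904 (rank 5), CYTB at 2553 (rank 10), ND2 at 1359, ND4 at 835, and ND5 at 535. The ranges of ND1 (2449 to 3709 FPKM) and CYTB (2225 to 2980 FPKM) overlapped over the tumors. COX1, which carries the heme and copper site of complex IV, lay above all of these in each tumor, from 6730 to 8163 FPKM. The other 7 mitochondrial genes were far lower. ND6 had a mean of 72.2 FPKM, COX2 55.3, COX3 51.3, ATP6 39.6, ND4L 14.2, ND3 8.43, and ATP8 2.75. COX1 and COX2 are both catalytic subunits of complex IV, yet the FPKM of COX1 was 115 to 159 times that of COX2. Among nuclear-encoded members the highest means were those of Atp5b (558 FPKM), Cox6c (446 FPKM), Cox4i1 (373 FPKM), and Atp5a1 (329 FPKM).

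**Figure D1:**
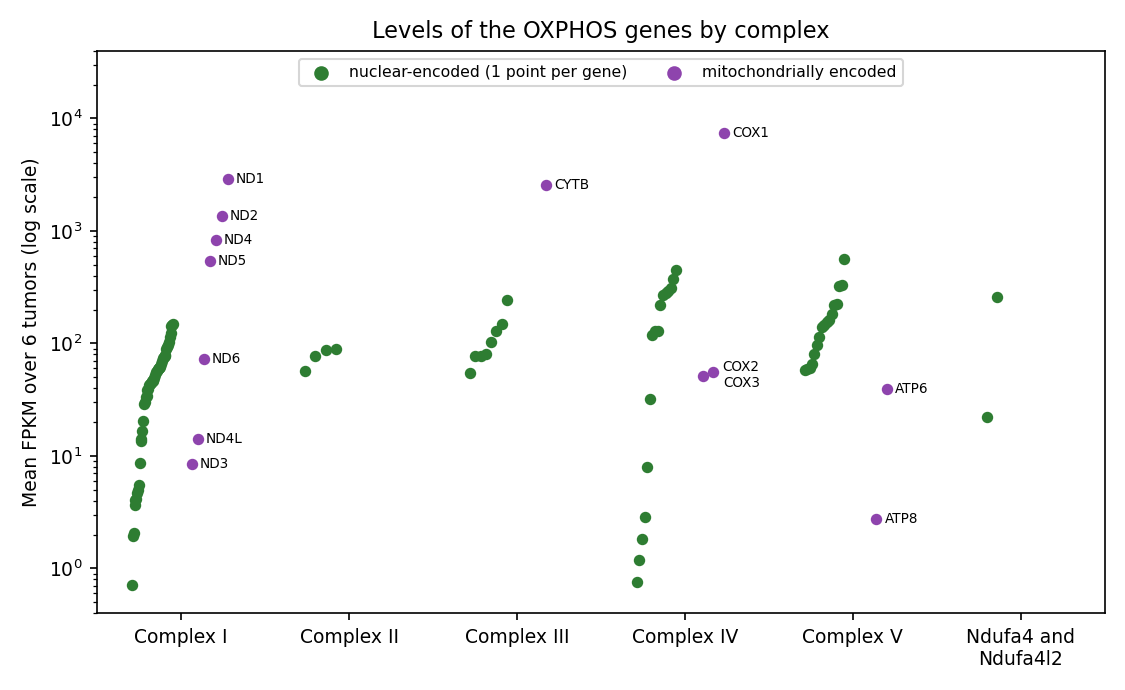
Mean FPKM of each OXPHOS gene over 6 tumors on a log axis, by complex, with nuclear-encoded genes in green and mitochondrially encoded genes in purple and named. COX1 was the highest at 7378 FPKM. ND5 (535 FPKM) and 7 lower mitochondrial genes, from ATP8 at 2.75 to ND6 at 72.2 FPKM, lay within the range of nuclear-encoded genes (0.72 to 558 FPKM).

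These low levels went along with near-identical copies of mitochondrial DNA in the nuclear genome. Chromosome 1 of the GENCODE M21 reference holds 7 annotated pseudogenes within 4663 bases that copy COX1, COX2, ATP6, COX3, ND3, ND4L, and ND4, in that order. None of the 7 is listed in the deposited tables. The share of 50-base stretches of a gene that also occur in another annotated gene was complete for COX2 and was 99.9% for COX3, 99.5% for ATP6, 98.8% for ND4L, and 98.0% for ND3. It was 62.2% for ND4, 51.1% for COX1, 8.19% for ND2, and 7.61% for ND5. ND1, CYTB, ND6, and ATP8 had none. The 5 genes copied over nearly their whole length were thus 5 of the 7 with low FPKM. ATP8 lies between COX2 and ATP6 and shares 43 bases with ATP6. On chromosome 1 the copies of COX2 and ATP6 are 233 bases apart, against 230 in mitochondrial DNA, but no annotated gene fills the gap. The sources name different methods (expectation maximization for FPKM in the paper, HTSeq in the processing notes) without saying which made these values. How reads that match 2 places were assigned is not given. The part of these copies in the measured levels was not tested. Whether counting used strand is also not given, so ND6, which lies opposite RNA of the other strand, and the overlapping ATP8 and ND4L rows are uncertain.

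Ends of the copied blocks of COX1, ND4, and COX2 are shown, the first 2 as genes copied in part and COX2 as a gene copied over nearly its whole length. Capitals mark bases that are identical in the chromosome 1 copy, and lower case marks bases outside the block, on the coding strand of GENCODE M21 transcripts. COX1 is copied from base 1067 to base 1545 of its 1545 bases, ND4 from base 1 to base 876 of 1378, and COX2 over all 681 bases of its pseudogene Gm28661 without a difference.
COX1, bases 1037 to 1096: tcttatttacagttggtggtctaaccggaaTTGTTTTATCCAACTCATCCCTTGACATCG
Gm29216, the same end of the block: TTGTTTTATCCAACTCATCCCTTGACATCG
ND4, bases 847 to 906: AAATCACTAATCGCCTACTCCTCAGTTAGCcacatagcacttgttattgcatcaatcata
Gm28439, the same end of the block: AAATCACTAATCGCCTACTCCTCAGTTAGC
COX2 and Gm28661, bases 1 to 60: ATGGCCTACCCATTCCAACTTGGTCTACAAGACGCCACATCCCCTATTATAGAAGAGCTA
COX1 also has copies outside this block, since Gm29216 holds 28.7% of its 50-base stretches and all other annotated genes together bring the share to 51.1%. In ND3 the copy Gm28438 differs by T3C, counted from the first base of the gene (the gene's base first, then the copy's).

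**Figure D2:**
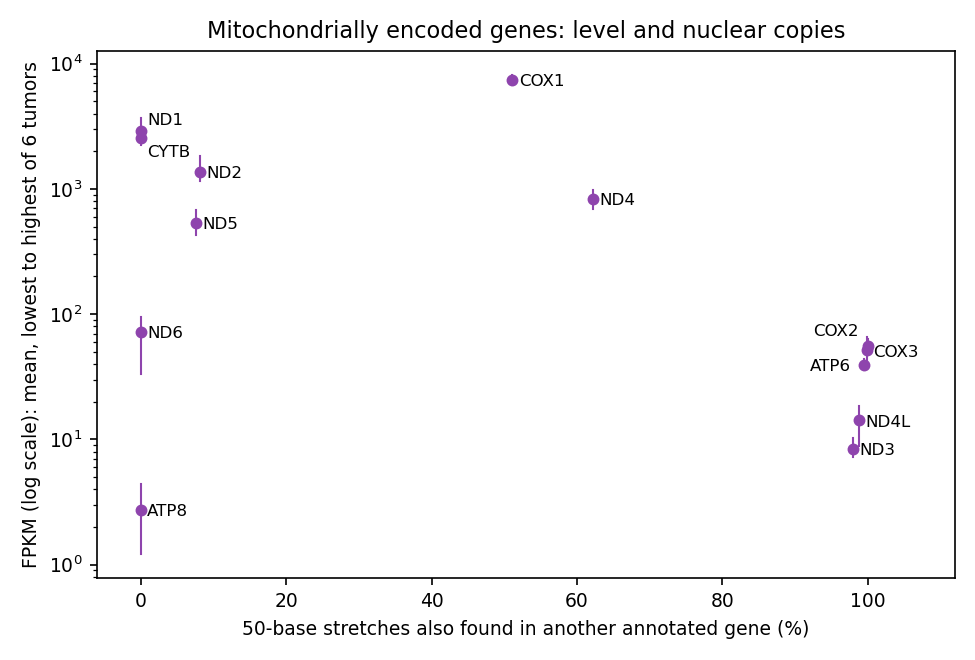
FPKM (log axis, mean with the lowest and highest of 6 tumors) of the 13 mitochondrially encoded genes against the percentage of their 50-base stretches that occur in another annotated gene. COX2, COX3, ATP6, ND4L, and ND3, at 98.0% or more, all lay at or below 66.2 FPKM in each tumor, whereas ND6 and ATP8 were low without annotated copies.

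No OXPHOS gene was up-regulated or down-regulated by edgeR, the main test. By edgeR (quasi-likelihood fit, p-values adjusted by Benjamini-Hochberg over all genes), 0 of the 109 members had an adjusted p under 0.05, against 3.29% of all 16513 genes tested (1.94% higher and 1.34% lower). All 109 members had passed the limit on low counts. At an unadjusted p under 0.05 there was 1 member higher (Cox6b2) and 4 lower (ND1, ND2, ND4, and ND5), against 8.53% higher and 8.69% lower of all genes. These counts depended on single tumors, with 11 higher and 4 lower without control tumor 3, and 0 higher and 1 lower without control tumor 1. With the tumor number as a block in the edgeR fit, they were 2 higher and 0 lower. limma voom also called 0 members. DESeq2 called 3 lower, ND5 (adjusted p = 0.012), ND4 (0.022), and ND1 (0.042), where it called 7.72% of 15472 genes (3.72% lower). Over all alternatives run, adjusted p ran from 0.012 to 0.67 for ND5, from 0.022 to 0.77 for ND4, and from 0.042 to 0.92 for ND1. On the 5 tumors with deposited counts DESeq2 called 0 members. In CPM (counts scaled to the library total by TMM), the groups did not overlap for 1 member that was higher and 7 that were lower in the Sora group, against 10.6% and 11.6% of all genes. These were Ndufa4l2, which was higher, and ND1, ND3, ND4, ND5, COX1, Sdha, and Sdhc, which were lower. Over all 109 members both shares lay below the background. Those that were lower were 5 of the 13 mitochondrial genes and 2 of the 96 nuclear-encoded members.

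The 4 members with an unadjusted p under 0.05 in the lower direction were all mitochondrial genes of complex I. ND5, a proton-pumping subunit, had 1139, 908, and 1233 CPM in control tumors 1, 3, and 4, and 883, 877, and 810 CPM in Sora tumors 2, 3, and 4. The groups did not overlap, but control tumor 3 lay close to Sora tumor 2. Its log2 fold change was -0.35 (SE 0.11, edgeR adjusted p = 0.12), a difference of -21.6% with a 95% interval from -33.8% to -7.15%. When control tumor 3 was left out, the log2 fold change was -0.47 and edgeR's adjusted p was 0.033, and without each other tumor in turn it stayed above 0.05, up to 0.37.

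ND4, another proton-pumping subunit, showed the same arrangement of tumors. It had 1314, 1123, and 1341 CPM in the control group and 1083, 1051, and 982 CPM in the Sora group (log2 fold change -0.28, SE 0.093, edgeR adjusted p = 0.14). ND1, which lies near the ubiquinone site, had 3458, 2631, and 3052 CPM against 2599.95, 2496, and 2414 CPM (-0.28, edgeR adjusted p = 0.20). In all of these, control tumor 3 was the lowest of the control group and stood next to the Sora tumors. ND2 had 1844, 1295, and 1493 CPM against 1319, 1262, and 1237 CPM (-0.28, edgeR adjusted p = 0.26), so that control tumor 3 lay below Sora tumor 2. Control tumor 1 was the highest tumor for both ND1 and ND2. Without it the log2 fold changes were -0.18 for ND1 and -0.13 for ND2, and without control tumor 3 they were -0.38 and -0.39. The low rows ND3 (2.82 to 3.50 against 2.49 to 2.68 CPM) and ND4L (4.09 to 5.36 against 2.69 to 5.21 CPM) had log2 fold changes of -0.33 and -0.28 with adjusted p of 0.50 and 0.64.

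ND6, the complex I subunit read from the opposite strand, did not follow the others. It had 48.2, 37.5, and 17.0 CPM in the control group and 48.2, 37.5, and 36.3 CPM in the Sora group (log2 fold change 0.25, edgeR adjusted p = 0.71). The value rested on control tumor 4, the lowest for ND6 and the highest for ND5, and without it the log2 fold change was -0.076.

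Apart from ATP8, the mitochondrial genes outside complex I had log2 fold changes closer to 0 than any of complex I. COX1 had 12116, 11472, and 12518 CPM in the control group and 10329, 10935, and 11019.6 CPM in the Sora group, without overlap, and a log2 fold change of -0.16 (SE 0.098, edgeR adjusted p = 0.45). CYTB, the electron-carrying core of complex III, had 3021, 2793, and 3384 CPM against 2893, 2803, and 2622 CPM (-0.15, edgeR adjusted p = 0.50). COX2 (34.8 to 42.3 against 34.9 to 39.9 CPM), COX3 (38.0 to 50.6 against 32.7 to 41.5 CPM), and ATP6, the proton channel of complex V (26.0 to 29.2 against 24.04 to 27.8 CPM), overlapped between the groups. ATP8, with 9 to 28 counts per tumor, gave a log2 fold change of 0.29 with an SE of 0.51 and was too low to compare.

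**Figure D3:**
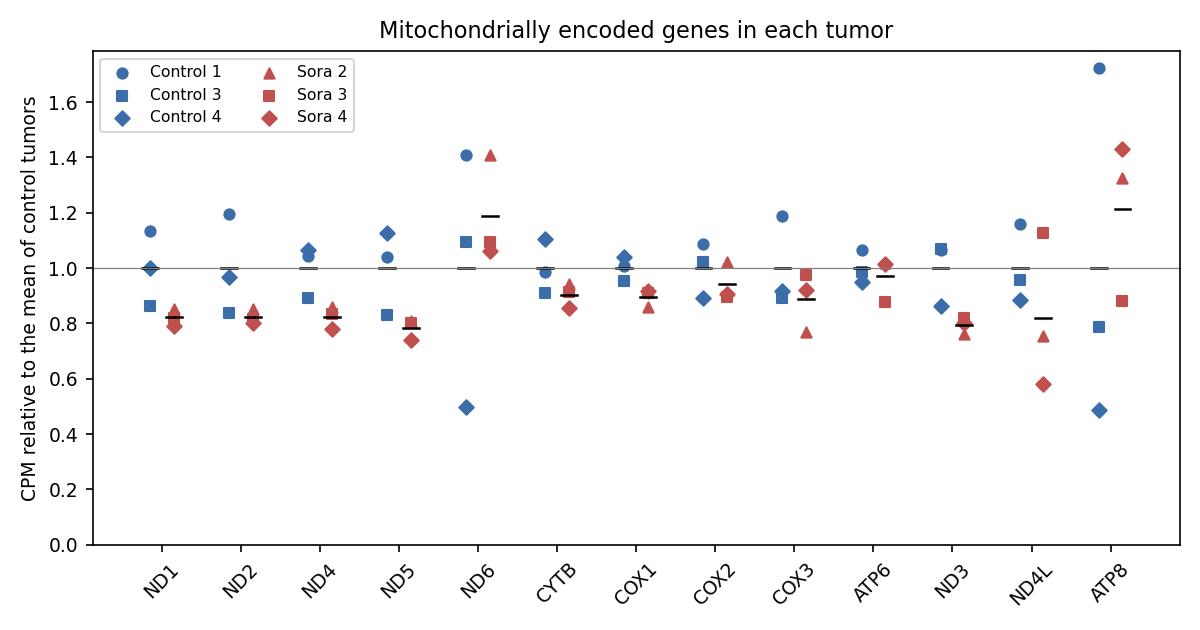
CPM of each mitochondrially encoded gene in each tumor, divided by the mean of the 3 control tumors, with control tumors in blue, Sora tumors in red, marker shapes for the tumor number, and bars for group means. For ND1, ND2, ND4, and ND5 the Sora tumors lay close together, and control tumor 3 stood next to them.

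As a group, 11 of the 13 mitochondrial genes were below 0, where 50.1% of all genes were, and their median log2 fold change was -0.17 beside -0.0004 over all genes tested. The median was -0.28 in complex I (6 of 7 below 0), -0.15 in complex III (CYTB alone), -0.16 in complex IV (3 of 3 below 0), and 0.12 in complex V (1 of 2 below 0). Over 5 genes with few or no stretches in another annotated gene (CYTB, ND1, ND2, ND5, and ND6) it was -0.28, and with ATP8, which also has none but lies between copied genes and has few counts, it was -0.21. These genes share transcripts and are not independent of each other. Most leukocyte markers lay in the same direction, with 5 of 6 below 0 (median -0.20). None was called by edgeR, and DESeq2 called Ptprc, the pan-leukocyte marker CD45, lower (log2 fold change -0.35, adjusted p = 0.021, edgeR 0.11). The other direction was that of Itgam (log2 fold change 0.24, edgeR adjusted p = 0.13, DESeq2 0.084). It had 93.4 to 98.3 CPM in the control group and 108 to 124 CPM in the Sora group, without overlap. The summed level of the 6 leukocyte markers was 576 to 660 CPM in the control group and 499.7 to 571 CPM in the Sora group, without overlap. Summed levels of marker lists, here and below, are scaled to the total counts without TMM. The part of leukocytes in the mitochondrial values was not tested.

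The 13 genes together took 2.37%, 1.99%, and 2.33% of the counts of control tumors 1, 3, and 4, and 1.94%, 1.98%, and 1.87% of those of Sora tumors 2, 3, and 4. Group means were 2.23% ± 0.21 and 1.93% ± 0.056 (SD, n = 3 each). COX1 alone took 1.04% to 1.26% of the counts of each tumor. The mean difference was -0.30 percentage points with all tumors and -0.42 without control tumor 3. The 96 nuclear-encoded members took 0.885%, 0.961%, and 0.858% in the control group and 0.916%, 0.891%, and 0.935% in the Sora group, with overlap. The ratio of mitochondrial to nuclear-encoded OXPHOS counts was 2.68, 2.07, and 2.72 in the control tumors and 2.12, 2.22, and 1.998 in the Sora tumors. By this ratio control tumor 3 lay within the Sora group, and the other 2 control tumors lay above all Sora tumors.

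**Figure D4:**
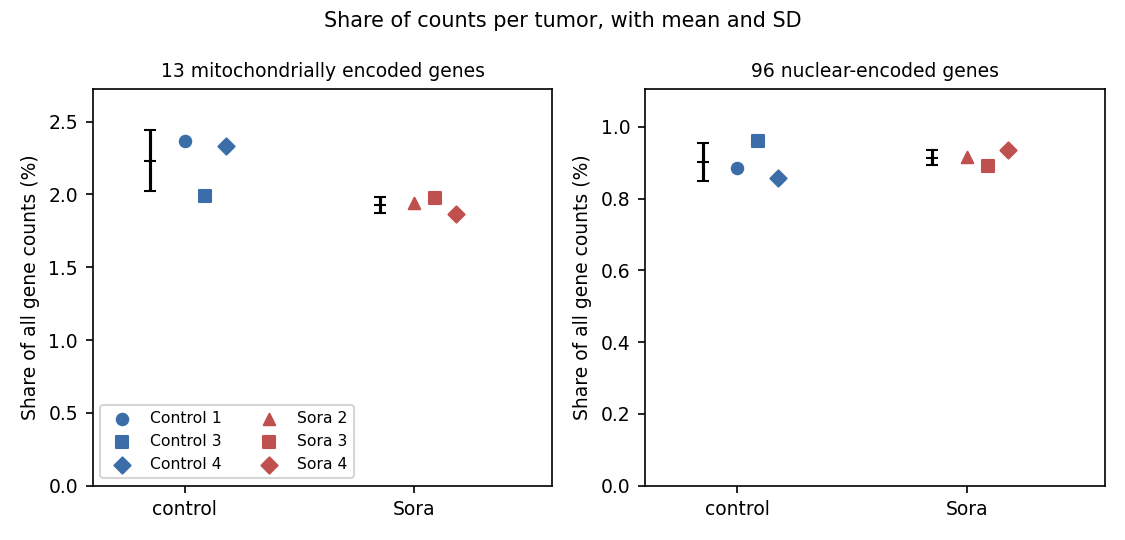
Percentage of all gene counts on the 13 mitochondrially encoded genes (left) and the 96 nuclear-encoded OXPHOS genes (right), with a point per tumor and the mean and SD of each group (n = 3). On the left, control tumor 3 (1.99%) lay beside Sora tumor 3 (1.98%), and on the right the groups overlapped.

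The nuclear-encoded members differed little between the groups. Their median log2 fold change was 0.036, with 65 above 0 and 31 below 0, and 90 of the 96 lay within 0.2 of 0 against 60.6% of all genes, many of which have fewer reads. The direction of the median was not stable, since it was -0.023 without control tumor 4 and 0.11 without control tumor 3. The largest spread was between control tumors. The median deviation of these 96 genes from their mean over the 6 tumors was -0.067 in control tumor 1, 0.14 in control tumor 3, and -0.14 in control tumor 4 on the log2 scale, and it was -0.0068, -0.028, and 0.091 in Sora tumors 2, 3, and 4. All genes tested had medians of 0.0024 to 0.011. In each nuclear-encoded complex, control tumor 3 had the highest median of the control group. Complex I accessory subunits had 0.17 in control tumor 3 and -0.14 in control tumor 4. The mitochondrial genes did not share this order, with a median of 0.26 in control tumor 1, -0.024 in control tumor 3, and -0.0040 in control tumor 4.

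Gene length went along with this spread. Among the nuclear-encoded members, the log2 ratio of control tumor 3 to control tumor 4 had a median of 0.34 for the 55 genes shorter than 1000 bases and 0.18 for the 41 longer genes. Over all genes tested the same medians were 0.23 for 1050 short genes and -0.021 for 15463 longer ones. The rank correlation of this ratio with length was -0.56 over the 96 members and -0.30 over all 16513 genes, where all points come from the same 2 libraries. The part of length in the OXPHOS spread was not tested.

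**Figure D5:**
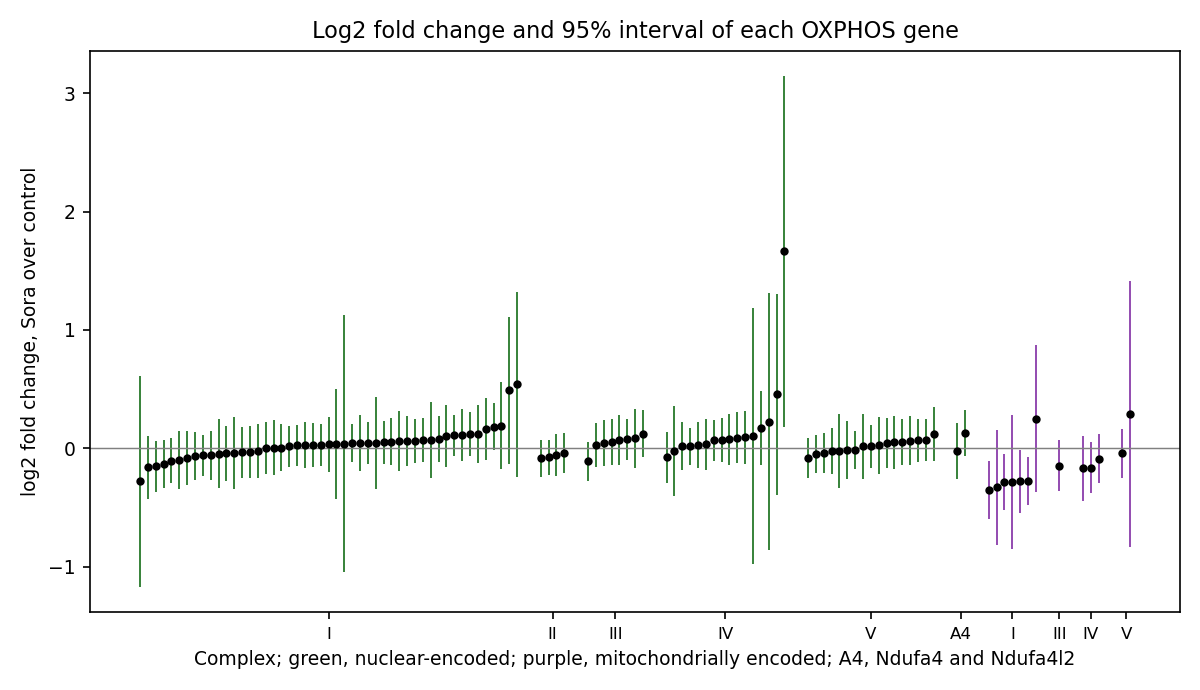
Log2 fold change (Sora over control) of the 109 OXPHOS genes with 95% intervals from edgeR, sorted within each complex, with nuclear-encoded genes in green and mitochondrially encoded genes in purple. Most nuclear-encoded genes lay within 0.2 of 0, the wide intervals belong to genes with few reads, and 6 of 7 mitochondrial complex I genes lay below 0.

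Nuclear-encoded complex I was measured through 7 core subunits, 30 accessory subunits, 8 Ndufaf assembly factors, and 4 gene copies. The core subunits hold the flavin and the iron-sulfur clusters. Their log2 fold changes ran from -0.10 to 0.11 with a median of 0.027 (6 of 7 above 0). The accessory subunits ran from -0.15 to 0.18 with a median of 0.032 (20 of 30 above 0), and the assembly factors from -0.16 to 0.19 with a median of 0.0007 (4 of 8 above 0). None passed the test in any of these groups, and the lowest adjusted p among core and accessory subunits was 0.34. The 95% intervals of the core subunits together spanned -0.29 to 0.28. Ndufb9, an accessory subunit with the highest FPKM of nuclear complex I, had 103, 113, and 85.7 CPM in the control group and 102, 106, and 107 CPM in the Sora group. The Sora tumors were closer to each other than the control tumors were. Ndufc1, an accessory subunit, had 30.9, 35.8, and 28.3 CPM against 28.3, 28.0, and 29.2 CPM (log2 fold change -0.15, edgeR adjusted p = 0.48). Ndufaf7, a methyltransferase that acts in complex I assembly, had 12.9, 15.01, and 13.05 CPM against 12.7, 12.99, and 10.9 CPM (-0.16, edgeR adjusted p = 0.55). These were the lowest log2 fold changes among nuclear-encoded complex I genes with a mean of at least 1 CPM, and their groups overlapped.

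The 4 copies of complex I genes had few reads. Ndufb4b had 0.97 to 2.12 CPM in the control group and 1.59997 to 2.33 CPM in the Sora group (log2 fold change 0.54, edgeR adjusted p = 0.48). Ndufab1-ps, a pseudogene of the acyl carrier protein gene Ndufab1, had 1.51 to 2.15 against 1.94 to 3.01 CPM (0.49, edgeR adjusted p = 0.42). The other copies were lower still, with Ndufb4c at 0.25 to 0.52 against 0.27 to 0.45 CPM (0.040, edgeR adjusted p = 0.98) and Ndufs6b at 0.71 to 1.43 against 0.66 to 1.24 CPM (-0.28, edgeR adjusted p = 0.79). Reads of such copies may come from their parents, so their values are uncertain. The parent Ndufb4 shares 37.0% of its 50-base stretches with other annotated genes. Among the nuclear-encoded members that were searched, this share was highest for Atp5l (84.8%), Atp5h (47.9%), and Uqcrb (43.4%). Their levels are uncertain for the same reason.

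All 4 subunits of complex II, which is also an enzyme of the citric acid cycle, lay slightly below 0. Sdha, the flavoprotein that oxidizes succinate, had 227, 231, and 230.1 CPM in the control group and 216, 221, and 214 CPM in the Sora group, without overlap (log2 fold change -0.076, SE 0.066, edgeR adjusted p = 0.62). The iron-sulfur protein Sdhb had 62.1, 66.4, and 59.98 CPM against 57.1, 63.8, and 62.2 CPM (-0.041, edgeR adjusted p = 0.84). The membrane anchor Sdhc had 113, 124, and 113 CPM against 109, 109, and 112 CPM, with a gap of under 1 CPM between the groups (-0.083, edgeR adjusted p = 0.61). The other anchor, Sdhd, had 112, 127, and 111 CPM against 106, 113, and 118 CPM (-0.058, edgeR adjusted p = 0.77). The 95% interval of Sdha ran from -14.3% to 4.96%.

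In complex III, 7 of 8 nuclear-encoded subunits were above 0, with a median log2 fold change of 0.062 and a range from -0.11 to 0.12. Uqcrfs1, the Rieske iron-sulfur protein, had 97.7, 113, and 92.8 CPM in the control group and 110.3, 103, and 117 CPM in the Sora group (0.12, edgeR adjusted p = 0.53). Uqcrb, which binds near the quinone site, had 72.7, 77.3, and 69.2 CPM against 67.2, 64.6, and 71.5 CPM (-0.11, edgeR adjusted p = 0.52). Uqcrq ran from 68.6 to 94.1 against 77.3 to 93.5 CPM, and Uqcrh, the hinge protein and the nuclear-encoded subunit with the most FPKM, from 116 to 149 against 132 to 139.8 CPM. The groups overlapped for each of these.

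In complex IV, 14 of 16 nuclear-encoded members were above 0, with a median of 0.074, but 4 of the 16 (Cox6a2, Cox6b2, Cox7a1, and Cox8b) had at most 72 counts in any tumor. Cox6c, the nuclear-encoded subunit with the most FPKM, had 204, 249.8, and 199.9 CPM in the control group and 225, 219.8, and 250.4 CPM in the Sora group (log2 fold change 0.089, edgeR adjusted p = 0.71). Cox7a2, the widely expressed form of subunit VIIa, had 87.9, 116, and 72.0 CPM against 101, 98.4, and 111 CPM (0.17, edgeR adjusted p = 0.60). Cox5a, which binds a thyroid hormone metabolite, had 104, 119, and 90.8 CPM against 105, 92.8, and 98.7 CPM (-0.077, edgeR adjusted p = 0.76). The control group covered or nearly covered the Sora values in each of them.

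For 5 complex IV subunits the members include both a widely expressed form and a form of particular tissues, and the former was the higher in every tumor. The FPKM of Cox4i1 was 41.6 to 53.9 times that of Cox4i2, the form known from lung and from low oxygen. It was 91.2 to 218 times higher for Cox6a1 than for the heart and muscle form Cox6a2, and 31.995 to 87.7 times higher for Cox7a2 than for the muscle form Cox7a1. Cox8a was 168 to 434 times as high as Cox8b, a form of muscle and brown fat. Cox6b1 was 173 to 1972 times as high as the testis form Cox6b2. These ranges overlapped between the groups for every pair.

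The minor forms had few reads, and no difference in them passed the test. Cox6b2 had 11, 8, and 3 counts in control tumors 1, 3, and 4, and 6, 34, and 30 counts in Sora tumors 2, 3, and 4. Sora tumor 2 lay within the control group, and the log2 fold change was 1.66 with an SE of 0.67 (edgeR adjusted p = 0.22). The testis markers Prm1 and Ddx4 were too low to be tested, and the summed level of that list was 0.22 to 0.67 CPM in the control group and 0.29 to 0.39 CPM in the Sora group. Cox6a2 had 0.78, 1.41, and 0.85 CPM against 0.96, 1.91, and 1.30 CPM, and Cox7a1 had 0.94, 2.21, and 0.69 against 0.70, 1.55, and 1.84 CPM. Cox8b had 8 to 21 counts per tumor. Skeletal muscle markers were present in all tumors, with a summed level of 177 to 238 CPM in the control group and 197 to 282 CPM in the Sora group, and 8 of 8 were above 0 with none called by edgeR or DESeq2. The summed level of the 4 brown adipocyte markers was 4.80 to 9.50 CPM in the control group and 9.53 to 14.2 CPM in the Sora group, without overlap, and 3 of 3 tested were above 0. White adipocyte markers summed to 59.5 to 87.9 against 72.2 to 112.3 CPM, with 4 of 4 tested above 0 (median 0.65), none called by edgeR, and Cfd called higher by DESeq2 (log2 fold change 0.75, adjusted p = 0.0014, edgeR 0.063). Of the brown adipocyte markers, Ucp1 was too low to be tested and Elovl3, a fatty acid elongase, was up-regulated, with 1.17 to 1.90 CPM in the control group and 4.11 to 6.31 CPM in the Sora group (log2 fold change 1.87, edgeR adjusted p = 0.011). This call was lost without Sora tumor 4 (edgeR adjusted p = 0.054), and over all alternatives the adjusted p reached 0.16. The part of muscle or fat tissue in the minor forms was not tested.

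Ndufa4, which was named for complex I and is now known as a subunit of complex IV, had 118, 151, and 122 CPM in the control group and 133, 114, and 138 CPM in the Sora group. Its relative Ndufa4l2, a target of hypoxia-inducible factors, had 22.2, 24.99, and 25.7 CPM against 27.0, 26.5, and 26.3 CPM. Ndufa4l2 was the only member without overlap in the upward direction, by a gap of under 1 CPM, and its log2 fold change was 0.13 (SE 0.088, edgeR adjusted p = 0.50). The ratio of Ndufa4 to Ndufa4l2 in FPKM was 11.04 to 14.04 in the control group and 9.99 to 12.2 in the Sora group. Pericytes are known to express both Ndufa4l2 and Cox4i2, and the summed level of the 7 pericyte markers was 452 to 615 CPM in the control group and 421 to 586 CPM in the Sora group. Of these 7 markers, 3 were above and 4 below 0 (median log2 fold change -0.056). None was called by edgeR, and DESeq2 called Cspg4 higher (log2 fold change 0.40, adjusted p = 0.011, edgeR 0.061).

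In complex V, the 17 nuclear-encoded members ran from -0.084 to 0.12 with a median of 0.017, and 10 were above 0. Atp5b, the catalytic beta subunit, had 960, 1091, and 1041 CPM in the control group and 1078, 991, and 1140.2 CPM in the Sora group, a difference of 3.78% with a 95% interval from -9.32% to 18.8%. Atp5k, a small membrane subunit that takes part in dimers of the enzyme, had 23.8, 28.2, and 22.04 CPM against 26.2, 26.0, and 28.3 CPM (log2 fold change 0.12, edgeR adjusted p = 0.61). Atp5g3, a gene for the rotating c ring, had 194, 207, and 175 against 203, 192, and 209 CPM (0.072, edgeR adjusted p = 0.71). Atp5pb, of the peripheral stalk, had 215, 228, and 207 against 206, 191, and 216 CPM (-0.084, edgeR adjusted p = 0.64), and Atp5c1, the central stalk, had 166, 186, and 178 against 168, 168, and 177 CPM (-0.051, edgeR adjusted p = 0.78). No member of complex V separated the groups.

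Genes that build or regulate the complexes also gave no calls by edgeR or DESeq2, where edgeR called 3.29% of all genes and 50.1% were below 0. Among assembly factors, edgeR called 0 of 11 for complex I outside the Nduf symbols (9 below 0, median -0.11), 0 of 4 for complex II (3 below 0, median -0.080), 0 of 6 for complex III (3 below 0, -0.012), 0 of 18 for complex IV (13 below 0, -0.041), and 0 of 3 for complex V (1 below 0, 0.030). Of 23 genes of mitochondrial transcription and RNA handling, 16 were below 0 and 0 were called (median -0.11). Among them Polrmt, the mitochondrial RNA polymerase, had 22.4 to 25.5 CPM in the control group and 20.8 to 21.5 CPM in the Sora group (-0.16, edgeR adjusted p = 0.42), and Tfam, which packs and transcribes mitochondrial DNA, had 48.97 to 52.2 against 43.8 to 53.3 CPM (-0.039). The groups did not overlap for Polrmt and overlapped for Tfam, and both genes were picked here for their roles with their values known. Of 9 replication genes (4 below 0) and 8 nuclear regulators (2 below 0), 0 were called, with medians of 0.031 and 0.035. The coactivator Ppargc1a was low, at 0.83 to 1.75 CPM over the tumors. The electron carrier Cycs had 75.8 to 93.1 against 74.6 to 109.9 CPM (0.18, edgeR adjusted p = 0.54). The 78 mitochondrial ribosomal protein genes divided evenly, 39 above and 39 below 0, with 0 called.

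The citric acid cycle feeds electrons to complexes I and II, and edgeR called 1 of its 17 genes, near the 3.29% of all genes for a list of this size. Idh3a, the catalytic subunit of NAD-dependent isocitrate dehydrogenase, had 94.0, 91.0, and 93.7 CPM in the control group and 77.0, 70.9, and 77.7 CPM in the Sora group. Its log2 fold change was -0.30 (SE 0.070, edgeR adjusted p = 0.043), and leaving out any 1 tumor gave an adjusted p of 0.052 to 0.14. The partner subunits Idh3b (0.035) and Idh3g (0.003) were near 0. The other 16 genes did not pass the test.

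Promoters of the nuclear-encoded members were searched for letters that the choice of members did not use. RefSeq promoters of GRCm38.p6, from 250 bases before to 50 bases after the start, were matched for 77 of the 96 genes and compared with those of 27025 genes, searching both strands. The 27025 genes were not limited to those expressed in these tumors. The factor NRF1, a known regulator of OXPHOS genes, binds a palindrome in which AT lies between GCGC and GCGC. It was present in 7 of 77 (9.09%) against 1.07% of all genes, and the looser form with any 2 bases (NN) in the middle, which includes it, in 27.3% against 6.997%. The ETS motif CCGGAAG, bound by GABP, was present in 24.7% against 9.93%, and the YY1 motif AAGATGG in 15.6% against 7.28%. The estrogen-related receptor motif TCAAGGTCA was present in 2 of 77 (2.60%) against 0.466%. The TATA box letters TATAAA were in 9.09% of members and 15.7% of all genes. At least 1 of the looser NRF1 form, CCGGAAG, and AAGATGG was present in 58.4% of members and 21.5% of all genes. The factors themselves were measured and not called, with Nrf1 at 34.5 to 38.3 CPM in the control group and 38.9 to 42.4 CPM in the Sora group (log2 fold change 0.14, edgeR adjusted p = 0.43) and Gabpa at 73.8 to 86.5 against 77.6 to 81.8 CPM (-0.039).

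The promoters below show the palindrome in the complex III gene Uqcrc1 and the complex IV gene Cox6a1, and set the widely expressed Cox6b1 beside the testis form Cox6b2. Capitals mark matches to the looser NRF1 form or to CCGGAAG on either strand, and all are written 5′ to 3′ on the strand of the gene.
Uqcrc1, chr9:108936398-108936697, plus strand: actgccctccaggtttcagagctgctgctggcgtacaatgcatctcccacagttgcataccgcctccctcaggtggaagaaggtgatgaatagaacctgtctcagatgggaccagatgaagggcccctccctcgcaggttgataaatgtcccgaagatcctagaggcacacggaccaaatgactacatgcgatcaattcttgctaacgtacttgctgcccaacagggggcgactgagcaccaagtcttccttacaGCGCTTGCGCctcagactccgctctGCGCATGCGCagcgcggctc
Cox6a1, chr5:115348909-115349208, minus strand: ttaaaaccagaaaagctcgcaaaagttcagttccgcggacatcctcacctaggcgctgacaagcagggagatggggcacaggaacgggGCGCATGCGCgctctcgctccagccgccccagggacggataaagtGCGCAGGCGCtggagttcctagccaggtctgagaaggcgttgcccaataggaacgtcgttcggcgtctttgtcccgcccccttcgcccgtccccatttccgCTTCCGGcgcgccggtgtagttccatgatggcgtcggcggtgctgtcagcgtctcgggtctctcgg
Cox6b1, chr7:30626065-30626364, minus strand: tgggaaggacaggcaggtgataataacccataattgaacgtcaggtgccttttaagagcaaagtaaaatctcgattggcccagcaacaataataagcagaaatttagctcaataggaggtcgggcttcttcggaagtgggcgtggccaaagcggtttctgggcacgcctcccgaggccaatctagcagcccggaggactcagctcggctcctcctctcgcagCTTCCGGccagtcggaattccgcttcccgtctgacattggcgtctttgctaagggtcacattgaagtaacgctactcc
Cox6b2, chr7:4753045-4753344, minus strand: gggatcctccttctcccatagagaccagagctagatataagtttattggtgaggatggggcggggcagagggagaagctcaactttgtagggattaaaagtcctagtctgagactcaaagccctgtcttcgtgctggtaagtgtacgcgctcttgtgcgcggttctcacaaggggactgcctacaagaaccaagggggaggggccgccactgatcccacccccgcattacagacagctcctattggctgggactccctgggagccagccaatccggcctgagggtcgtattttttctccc
Cox6b1 held CCGGAAG on the opposite strand, and the Cox6b2 window held none of the searched letters. Cox6a1 held 2 matches to the looser NRF1 form and 1 to the ETS letters. Uqcrc1 had 118, 130, and 124 CPM in the control group and 135, 120, and 138 CPM in the Sora group (log2 fold change 0.078, edgeR adjusted p = 0.68), and Cox6a1 had 139, 157, and 131 against 154, 142, and 153 CPM (0.072, edgeR adjusted p = 0.72). Their groups overlapped, as did those of Cox6b1 and Cox6b2. A match in these letters is a description of the sequence and does not show binding.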

How the data were processed

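RNA from 3 control and 3 Sora-treated tumors was analyzed, with groups and tumor numbers from the labels. The authors deposited a table of counts (whole reads per gene, not normalized) and a table of FPKM (counts scaled to gene length and to the total of counted reads), both listing 26167 genes. For the upstream steps, the paper names Bowtie2, GRCm38, and expectation maximization for the FPKM, whereas the submitters' processing notes name fastp, HISAT2, HTSeq, R 3.2.0, DESeq2, and GRCm39. Which of these made the deposited values could not be settled here, and neither source says how reads with several matches were assigned. The deposited FPKM correspond to whole counts, as described below. The annotation, the strand setting, and filters are not given in the sources used here. Such choices can change the mitochondrial rows, which have nuclear copies.

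The count table used here lacks Sora tumor 4. Its counts were recovered from FPKM and gene length, and 100% of values lay within 0.001 of a whole number. In Sora tumor 4, 20951 genes were recovered, and 342 genes without a length from another tumor (512 reads) were left at 0. In each of the 5 other tumors, the same step returned exactly the counts of all genes (20969 to 21229) whose length another tumor gives. The 16513 genes that reached 10 counts in 3 or more tumors were tested with edgeR 4.0.16 in R 4.3.3 (TMM scaling, quasi-likelihood, Benjamini-Hochberg over all genes, common biological coefficient of variation 0.132). DESeq2 1.42.0, limma 3.58.1, other scalings, filters, log2(FPKM + 1) and log2(FPKM + 0.1), and leaving out each tumor were the alternatives. Fits were also run on simulated counts, as a check of the code only. At 31073830 to 36205814 counts per tumor, 1 CPM was over 30 reads, and counting error limits genes below that. Nuclear copies were sought as exact 50-base stretches in GENCODE M21 transcripts. This reference was used for sequence only. For 7 members no protein-coding transcript was found under the same symbol, so these were not searched. The copies of complex I genes are among them.

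Named genes were the 13 mitochondrial rows, the isoform pairs, complex II, the gene of the most FPKM in each complex, and the 2 largest rises and falls per complex at a mean of at least 1 CPM. Genes named beyond this rule (Atp5a1, Atp5l, Atp5h, Ndufb4, Ndufb4c, Ndufs6b, Uqcrc1, and genes of the other lists) were chosen after their values were seen. The members, gene lists, and marker lists were chosen with earlier results of these data known.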

Additional observations from a re-analysis of the deposited data

How the results depend on the processing

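The number of OXPHOS genes with an adjusted p under 0.05 was 0 with edgeR and in most alternatives. It was 3 with DESeq2 (ND1, ND4, and ND5) and 1 with edgeR without a filter on low counts (ND5, adjusted p = 0.030). Leaving out each tumor gave 0 to 1, where the 1 was ND5 without control tumor 3. The share of the 13 mitochondrial genes, Sora minus control, was -0.30 percentage points of counts and -0.59 points of summed FPKM, and -0.42 to -0.23 points when each tumor was left out. The median log2 fold change was -0.24 to -0.16 for mitochondrial genes and -0.023 to 0.11 for nuclear-encoded genes when each tumor was left out. Of 892 values of named genes under alternatives, 31 (of 17 genes) had the other sign, none of them past the threshold. Alternatives chosen after seeing the data were DESeq2 on the 5 deposited columns (0 called) and the mitochondrial median over 5 genes (-0.28) or over these and ATP8 (-0.21).

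Tumors 3 and 4 carry the same numbers in both groups. The correlations of their deviations from the group means were -0.033 and -0.074 over 2 pairs, so the numbers were not taken as a pairing. With a replicate block, edgeR called 0 OXPHOS genes and 80 higher and 45 lower of all genes, against 321 and 222 without it.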
